A study of Homo sapiens with 18 samples.

Results

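The human stathmin family has 4 classical genes, STMN1, STMN2, STMN3 and STMN4, which were taken by symbol from a table of counts for 28394 genes in HEK293T cells. HEK293T is an established human embryonic kidney line. Induction of 102 proline-arginine repeats (102xPR) split the family: the 2 genes that the cells express at rest, STMN1 and STMN3, fell to 0.626 and 0.501 of their uninduced level, while STMN4, which had 3 counts in all 3 uninduced libraries together, had 507 counts in the 3 induced ones, and STMN2 went from 3 to 35 counts. When a poly-adenylate stretch or the red fluorescent control protein ChFP was induced, STMN1 and STMN3 were not called as changed and STMN2 and STMN4 had at most 2 counts in any induced library.

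Stathmins are small phosphoproteins that bind tubulin dimers through a conserved helical domain, which lowers the pool of free tubulin and promotes the shrinking of microtubules. Phosphorylation by mitotic and stress-activated kinases releases the tubulin. STMN1, also called oncoprotein 18, is cytosolic, is abundant in dividing cells and is needed for orderly assembly and breakdown of the spindle. STMN2 (SCG10), STMN3 (SCLIP) and STMN4 (RB3) are neuronal relatives that carry a membrane anchor at the amino-terminal end and sit on Golgi and axonal vesicles. STMN2 supports axon growth and repair, and its mRNA is cut short by a cryptic exon when the RNA-binding protein TDP-43 is lost from the nucleus in motor neurons of people with amyotrophic lateral sclerosis (ALS). The C9orf72 repeat expansion, a genetic cause of the same disease, is translated into several dipeptide repeat proteins, and poly-PR, rich in arginine, is one of them.

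The study used 3 stable HEK293T lines with Tet-on constructs. Each construct put GFP and a P2A peptide, which lets the ribosome release one product and go on to the next, ahead of the tested sequence: ChFP as the negative control (GFP-P2A-ChFP), a poly-adenylate stretch (GFP-P2A-poly-adenylate) or 102xPR (GFP-P2A-102xPR). Each line was left uninduced or was induced with doxycycline for 48 h at a dose that the labels give as 500 ng/µl, with 3 libraries for each of the 6 groups and 18 in all. The stated question was whether stalling on poly-adenylate gives a gene response like that of poly-PR. Each construct is represented by 1 stable line, so that line and construct cannot be told apart. Uninduced cells of the same line are the control for induction, and all induced groups received doxycycline. RNA came from a cleared detergent lysate made with cycloheximide and was selected for poly(A), so nuclear RNA may be depleted. The labels do not say whether the 3 libraries of a group were separate cultures, and p-values measure only the spread between them, which may be technical.

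The libraries held 15020739 to 27331102 counts on genes. Values are given as CPM, counts per 1000000 counts of a library after scaling for library composition (TMM factors). A gene was called changed where edgeR's quasi-likelihood test, fitted over 15447 genes and 18 libraries, gave a Benjamini-Hochberg adjusted p under 0.05. Of the 4 stathmins, 3 passed the filter on low counts, and STMN4 passed only through the induced 102xPR libraries. STMN2 did not pass. STMN2 and STMN4 had 5 counts or fewer in every group but induced 102xPR, so they are given as counts and as ratios of counts with 95% intervals for counting error, which carry no spread between libraries. The broad response to 102xPR sets the background for every count below: 67.3% of tested genes were called in that line, 33.8% upward and 33.4% downward, with a median log2 fold change of -0.01 over all genes. The corresponding shares were 1.08% in the poly-adenylate line (0.816% upward, 0.265% downward) and 2.01% in the ChFP line (1.13% upward, 0.887% downward). In bulk RNA, fewer cells expressing a gene and less of its RNA per cell cannot be told apart.

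STMN1 (ENSG00000117632, Entrez 3925) spans chromosome 1 from 25884179 to 25906880 on the minus strand, and STMN3 (ENSG00000197457, Entrez 50861) spans chromosome 20 from 63639712 to 63653424, also on the minus strand (GRCh38.p14, RefSeq gene table). STMN1 overlaps 4 other RefSeq entries, and processed pseudogenes of STMN1 and STMN3 exist, so that reads they share may be assigned differently by another counting method. They are the members that fell together. The DNA just before 1 RefSeq start of each is shown, read from RefSeq (GRCh38.p14) and written 5′ to 3′ on the coding strand. For STMN1 the stretch is chr1:25906467-25906669 (minus strand), from which the 47 bases nearest the start that lie in annotated exons were left out. For STMN3 it is chr20:63652767-63653016 (minus strand). Capitals mark a match to CACGTG, the E-box to which MYC and related factors bind, that lies outside annotated exons.
STMN1: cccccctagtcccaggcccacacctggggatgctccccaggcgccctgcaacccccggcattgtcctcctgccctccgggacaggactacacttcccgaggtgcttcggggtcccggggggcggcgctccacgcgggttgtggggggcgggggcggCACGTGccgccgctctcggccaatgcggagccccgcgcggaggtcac
STMN3: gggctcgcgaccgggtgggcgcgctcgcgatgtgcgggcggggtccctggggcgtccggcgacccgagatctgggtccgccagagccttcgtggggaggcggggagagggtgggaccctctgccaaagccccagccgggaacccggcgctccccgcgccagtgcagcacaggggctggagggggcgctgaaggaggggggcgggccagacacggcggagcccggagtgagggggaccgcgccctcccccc
Motifs chosen after these sequences had been read were searched on both strands of the 250 bases before the start: TTTGGCGC (E2F), TGACGTCA (cAMP response element), TGACG (its shorter core, contained in the former), TGATGNAAT (C/EBP-ATF) and CACGTG (E-box). The STMN1 window used here, 1 of 3 RefSeq starts of the gene in the table and the only one of them with a match, held CACGTG at 94 and 50 bases before the start, and TTTGGCGC at 38 bases before it. The CACGTG at 50 bases has 3 letters in an annotated exon, so it runs past the printed stretch and is not in capitals. TTTGGCGC lies wholly inside an annotated exon. CACGTG occurs in 6.34% and TTTGGCGC in 0.550% of 35116 human windows of that length. TGACGTCA occurs in 1.65%, TGACG in 21.2% and TGATGNAAT in 0.888%. The STMN3 window held none of these strings. A match is a run of letters and not a measured binding site.

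STMN1, the general stathmin of dividing cells, was the most abundant member per kilobase of transcript in every group. In uninduced cells of the 102xPR line it was measured at 330, 318 and 324 CPM (8960, 7939 and 6015 counts), and after induction at 202, 208 and 198 CPM (4349, 4974 and 3978 counts). The 3 induced libraries lay below all of the other 15, which ranged from 315 to 352 CPM with a median of 330. The log2 fold change was -0.68 ± 0.04 (SE; edgeR adjusted p = 1.19e-12; 95% interval -0.76 to -0.59).

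In the poly-adenylate line STMN1 was at 350, 333 and 324 CPM in uninduced cells and at 321, 315 and 324 CPM in induced cells. The 2 groups overlapped slightly, and the log2 fold change of -0.07 ± 0.04 was not called (edgeR adjusted p = 0.368; 95% interval -0.15 to 0.01). In the ChFP line the values were 352, 343 and 334 CPM uninduced and 334, 331 and 330 CPM induced, a log2 fold change of -0.05 ± 0.04 (edgeR adjusted p = 0.512; 95% interval -0.13 to 0.03). These intervals place any fall of STMN1 in those lines well short of the fall in the 102xPR line. The response to 102xPR was lower than that of the ChFP line by a log2 difference of -0.63 ± 0.06 (edgeR adjusted p = 4.44e-09) and lower than that of the poly-adenylate line by -0.61 ± 0.06 (edgeR adjusted p = 6.65e-09). Of all tested genes, 58.3% differed between the 102xPR and ChFP responses (28% upward, 30.3% downward), and 58.4% between the 102xPR and poly-adenylate responses (28.9% upward, 29.6% downward).

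STMN3, a neuronal stathmin attached to Golgi and vesicle membranes, was expressed in every HEK293T group and fell as well. In the 102xPR line it was at 96.7, 93.1 and 92.0 CPM in uninduced cells (2628, 2326 and 1707 counts) and at 45.3, 49.7 and 46.1 CPM in induced cells (974, 1188 and 927 counts). The 3 induced libraries lay below all of the other 15, which ranged from 78.0 to 96.7 CPM. The log2 fold change was -0.997 ± 0.0602 (edgeR adjusted p = 1.24e-12; 95% interval -1.12 to -0.87).

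In the poly-adenylate line STMN3 was at 89.4, 78.0 and 86.0 CPM uninduced and at 92.8, 89.9 and 90.3 CPM induced. The induced libraries were all above the uninduced ones, but the log2 fold change of 0.11 ± 0.06 was not called (edgeR adjusted p = 0.353; 95% interval -0.02 to 0.23). In the ChFP line STMN3 was at 80.9, 87.4 and 83.4 CPM uninduced and at 89.8, 96.2 and 82.0 CPM induced, overlapping groups with a log2 fold change of 0.09 ± 0.06 (edgeR adjusted p = 0.406). The 102xPR response differed from the ChFP response by -1.09 ± 0.08 (edgeR adjusted p = 3.94e-10) and from the poly-adenylate response by -1.10 ± 0.08 (edgeR adjusted p = 2.85e-10).

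The poly-adenylate and ChFP responses did not separate for either gene, with a log2 difference of -0.02 ± 0.06 for STMN1 (95% interval -0.14 to 0.10; edgeR adjusted p = 0.938) and 0.02 ± 0.08 for STMN3 (95% interval -0.16 to 0.19; edgeR adjusted p = 0.969). Only 0.0259% of tested genes were called in that comparison. Between induced cells alone, the 102xPR line was lower than the ChFP line in STMN1 (log2 fold change -0.71 ± 0.04, edgeR adjusted p = 5.44e-13) and in STMN3 (-0.92 ± 0.06, edgeR adjusted p = 4.95e-12), where 66.8% of tested genes were called. Induced poly-adenylate cells differed from induced ChFP cells by -0.05 in STMN1 (edgeR adjusted p = 0.565) and by 0.03 in STMN3 (edgeR adjusted p = 0.861), a comparison with 0.939% of genes called.

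The uninduced lines were compared because each is a separate stable line. Uninduced 102xPR cells held slightly more STMN3 than uninduced ChFP cells, 93.9 ± 2.49 against 83.9 ± 3.29 CPM (SD, n = 3), and the groups did not overlap. That log2 difference of 0.16 ± 0.06 missed the threshold (edgeR adjusted p = 0.0648; 12.2% of genes called). It passed with DESeq2 (0.16, adjusted p = 0.0444) and with edgeR fitted on those 2 groups alone (0.17, adjusted p = 0.00975). With the library set described at the end as a term in edgeR's fit it was 0.07 (adjusted p = 0.842) and 0 genes were called in this comparison. All 3 uninduced ChFP libraries lie in one set and all 3 uninduced 102xPR libraries in the other, so that set and line can be separated here only through the other groups. For STMN1 the difference was -0.08 ± 0.04 (edgeR adjusted p = 0.166). Uninduced poly-adenylate cells differed from uninduced ChFP cells by -0.03 in STMN1 (edgeR adjusted p = 0.803) and 0.01 in STMN3 (edgeR adjusted p = 0.957), with 0.104% of genes called.

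STMN4 (ENSG00000015592, Entrez 81551) spans chromosome 8 from 27235308 to 27258404 on the minus strand. This neuronal stathmin, whose tubulin-binding domain is widely used in crystal structures of tubulin, was nearly silent in every library but those with 102xPR induced. The 3 uninduced libraries of the 102xPR line had 1, 1 and 1 counts. The 3 induced libraries had 198, 165 and 144 counts, or 9.22, 6.90 and 7.16 CPM. The ratio of summed counts, scaled for library size, was 182 (95% counting interval 62.1 to 888).

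In the other 15 libraries STMN4 had 13 counts in total, at most 2 in any library and none in 4 of them. A count of 0 allows up to 3 counts at these depths. The ChFP line had 0, 1 and 0 counts uninduced and 2, 2 and 1 counts induced. The poly-adenylate line had 0, 1 and 0 counts uninduced and 1, 1 and 1 counts induced. Such values are at the limit of detection, and no ratio is given for the poly-adenylate line, where both groups had 3 counts or fewer. For the ChFP line the ratio of 5 to 1 counts was 5.85 with an interval from 0.655 to 277. Against induced ChFP cells, STMN4 in induced 102xPR cells was 87.7 times higher (507 against 5 counts; 95% counting interval 37.3 to 271), and against induced poly-adenylate cells 175 times higher (507 against 3 counts; 59.5 to 850).

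STMN2 (ENSG00000104435, Entrez 11075) spans chromosome 8 from 79611117 to 79666158 on the plus strand and overlaps 1 other RefSeq entry. The member linked to TDP-43 and ALS was barely detectable. Reads were counted per gene, so that the counts do not separate full-length STMN2 from its truncated form. Uninduced cells of the 102xPR line had 1, 2 and 0 counts, and induced cells had 14, 13 and 8 counts, or 0.652, 0.544 and 0.398 CPM. The 3 induced 102xPR libraries were the highest of all 18. The ratio was 12.6 (35 against 3 counts; 95% counting interval 3.97 to 64.0). It was 24.4 without the uninduced library of replicate 2, which held 2 of the 3 uninduced counts. An exact permutation test over libraries, two-sided, gave p = 0.1, the smallest that 3 against 3 allows.

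The other 15 libraries held 20 STMN2 counts in total, from 0 to 4 each, with 0 in 4 of them. The ChFP line had 0, 2 and 3 counts uninduced and 1, 2 and 1 induced, a ratio of 0.936 (0.186 to 4.35). The poly-adenylate line had 0, 4 and 1 counts uninduced and 0, 1 and 2 induced, a ratio of 0.513 (0.0797 to 2.64). Both intervals include 1 and are wide, so a change of several fold in these lines was not detectable at this depth. Induced 102xPR cells exceeded induced ChFP cells 7.56 times (35 against 4 counts; 2.70 to 29.3) and induced poly-adenylate cells 12.1 times (35 against 3 counts; 3.80 to 61.3). The last ratio was 24.0 without poly-adenylate induced replicate 3, which held 2 of its 3 counts.

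In the authors' deposited table for 102xPR, which does not state its contrast and correlated best across genes with induced 102xPR against induced ChFP cells as computed here (r = 0.983), all 4 members were listed as changed. The log2 fold changes in the authors' deposited table were -0.69 for STMN1 (adjusted p = 7.59e-76), -0.90 for STMN3 (adjusted p = 4.37e-44), 6.32 for STMN4 (SE 0.677, adjusted p = 1.45e-19) and 1.87 for STMN2 (SE 1.34, adjusted p = 0.0135). The authors' deposited table for poly-adenylate matched no comparison closely (best r = 0.453, with induced poly-adenylate against induced ChFP cells, then 0.308) and gave -0.04 for STMN1 (adjusted p = 0.473) and 0.01 for STMN3 (adjusted p = 0.865). It gave values near 0 and no adjusted p for STMN2 and STMN4. The deposited fold changes of genes with few counts may have been shrunk toward 0, so that a value near 0 there does not show a lack of change.

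The lowest group was the same for both abundant members, and the order above it was not. For STMN1 the group means ran from 343 CPM in uninduced ChFP cells through 336 in uninduced poly-adenylate, 332 in induced ChFP, 324 in uninduced 102xPR and 320.0 in induced poly-adenylate to 203 CPM in induced 102xPR cells, and all neighbours but the last pair overlapped. For STMN3 they ran from 93.9 CPM in uninduced 102xPR through 91.0 in induced poly-adenylate, 89.3 in induced ChFP, 84.5 in uninduced poly-adenylate and 83.9 in uninduced ChFP to 47.1 CPM in induced 102xPR, again with overlap everywhere but at the last step. The highest and the lowest mean of STMN3 were thus both in the 102xPR line. For STMN2 and STMN4 induced 102xPR was the highest group, apart from all others, and the remaining groups differed by single counts.

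The proportion of the 2 abundant members was compared within libraries. In the 102xPR line STMN3 amounted to 29.3, 29.3 and 28.4 counts per 100 STMN1 counts before induction and to 22.4, 23.9 and 23.3 after it, with no overlap. In the poly-adenylate line the quotient was 25.2 ± 1.59 uninduced and 28.4 ± 0.565 induced, and in the ChFP line 24.5 ± 1.29 uninduced and 26.9 ± 2.13 induced (SD, n = 3). Outside induced 102xPR the quotient was 23.0 to 26.5 in the 6 libraries of the smaller library set described at the end and 25.5 to 29.3 in the 9 libraries of the larger set. All induced poly-adenylate libraries lie in the larger set and 2 of the 3 uninduced ones in the smaller. In the 102xPR line all uninduced libraries lie in the larger set and induced replicates 1 and 2 (22.4 and 23.9) in the smaller. Induced 102xPR replicate 3, in the larger set, had 23.3. The induced 102xPR quotients overlapped those of uninduced ChFP cells, which ran from 23.0 to 25.5. The part of the sets in these quotients was not tested. The exact permutation p over libraries was 0.1 in the 102xPR line, 0.1 in the poly-adenylate line and 0.3 in the ChFP line, with 0.1 the smallest possible.

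To compare the members with each other, CPM was divided by the length of the longest coding transcript (1712, 2223, 2351 and 2288 bases for STMN1 to STMN4). On this level per kilobase, STMN1 stood at 189 ± 3.50 in uninduced 102xPR cells and at 118 ± 2.98 in induced ones (SD, n = 3). STMN3 stood at 40.0 ± 1.06 and 20.0 ± 0.989. STMN4 went from 0.0190 to 3.39 ± 0.554, and STMN2 from 0.0175 to 0.239 ± 0.0573, all in CPM per kilobase.

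As a share of the family's level per kilobase, STMN1 made up 82.6% before and 83.4% after induction of 102xPR. STMN3 went from 17.4% to 14.1%, and STMN4 from 0.00832% to 2.39% (range over induced libraries 2.07% to 2.84%). STMN2 went from 0.00769% to 0.168%. STMN4 thus remained far below STMN1, but the level of STMN3 per kilobase, 2098 times that of STMN4 before induction, was 5.90 times after it, and STMN4 was 14.2 times STMN2 in the induced cells.

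Another gene with a stathmin domain, STMND1, is no member of the set and was looked at after its values were seen. It had 35, 39 and 28 counts in uninduced and 65, 71 and 59 in induced 102xPR cells, a log2 fold change of 1.04 ± 0.20 (edgeR adjusted p = 7.12e-05). It changed by 0.07 in the poly-adenylate line (edgeR adjusted p = 0.902) and by 0.17 in the ChFP line (edgeR adjusted p = 0.691).

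The protein-coding genes on either side of each member moved in both directions in the 102xPR line, where 67.3% of all tested genes were called. Beside STMN4, TRIM35, a ubiquitin ligase gene 26482 bases away, rose in the 102xPR line (0.66 ± 0.07, edgeR adjusted p = 7.56e-09), while ADRA1A, an adrenergic receptor gene 367929 bases away, had 8 counts uninduced and 3 induced. Beside STMN2, HEY1, a Notch target gene 97852 bases away, rose by 1.10 ± 0.05 (edgeR adjusted p = 1.02e-14) and IL7, a cytokine gene 805654 bases away, fell by 1.15 ± 0.37 on the log2 scale (46 to 19 counts, edgeR adjusted p = 0.00893). Beside STMN3, GMEB2 rose by 0.23 ± 0.06 (edgeR adjusted p = 0.00235) and RTEL1 was not called (-0.46 ± 0.27, edgeR adjusted p = 0.139). Beside STMN1, PAFAH2 rose by 0.20 ± 0.08 (edgeR adjusted p = 0.0276) and PAQR7 was not called (-0.04, edgeR adjusted p = 0.749).

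The genes whose log2 CPM followed each member most closely over the 18 libraries were DBI, SEPTIN8 and HMGA2 for STMN1 (Pearson r 0.995, 0.993 and 0.992). They were GPC1, FADS2 and BID for STMN3 (0.988, 0.987 and 0.986) and RP9, TAF1D and AHRR for STMN4 (0.993, 0.992 and 0.992). For STMN2 they were RBM15, STAG3L5P-PVRIG2P-PILRB and WDR76, with lower values of 0.915, 0.915 and 0.911. These values describe 18 libraries of which the 3 induced 102xPR libraries stand apart from the rest, and libraries share their depth across genes. The partners of STMN1 and STMN3 fell in the 102xPR line (GPC1 from 43.3 to 14.4 CPM) and those of STMN2 and STMN4 rose (AHRR from 35.2 to 87.5 CPM).

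The partners that stathmins act on were followed next. Of 17 tubulin genes, 16 were tested in the 102xPR line, where 4 rose, 8 fell and 4 were not called, with a median log2 fold change of -0.27 against -0.01 over all genes. The shares over all tested genes there were 33.8% upward and 33.4% downward. The abundant alpha-tubulin TUBA1B fell from 1200 to 743 CPM (-0.69 ± 0.06), and TUBA1C fell by 0.78 ± 0.04 on the log2 scale. TUBG2, a gamma-tubulin of microtubule nucleation, rose by 0.89 ± 0.09, and TUBE1, a centriolar tubulin, by 0.68 ± 0.07. The neuronal beta-tubulin TUBB3 rose in the 102xPR line (0.31 ± 0.09, edgeR adjusted p = 0.00550) and in the ChFP line (0.39 ± 0.10, edgeR adjusted p = 0.0475; 1 tubulin rose there in 7 of 15 alternatives and 0 in the rest), and the 2 responses were not shown to differ (-0.07, edgeR adjusted p = 0.667). Before induction TUBB3 was already higher in 102xPR than in ChFP cells (0.33, edgeR adjusted p = 0.0343), where line and the library set described at the end coincide. The 1 tubulin that rose in the poly-adenylate line was TUBB2A (0.26 ± 0.06, edgeR adjusted p = 0.0459), and no tubulin fell there. Over 16 alternatives the number that rose was 0 to 2, and 1 in 5 of them, and the number that fell was 0 to 1. TUBB, a further beta-tubulin gene, had 0 and 1 counts in the 102xPR groups and was not tested, so the numbers above leave it out. Whether its RNA was absent or its reads were not assigned to it cannot be told from these counts.

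Genes for proteins that oppose or share the work of stathmins moved both ways, as genes did in general in the 102xPR line. There 33.8% of all tested genes were called upward and 33.4% downward. Of 40 genes for microtubule-stabilizing and plus-end proteins, 38 were tested, 12 rose, 11 fell and 15 were not called in the 102xPR line (median -0.01). MAP1S rose by 0.79 ± 0.06. DPYSL5 (CRMP5, -0.97 ± 0.05), MAP6D1 (-0.99 ± 0.08) and TPPP (-0.88 ± 0.08) fell. Of 16 genes for severing and depolymerizing enzymes 14 were tested, 5 rose, 4 fell and 5 were not called (median 0.01). The kinesins KIF18A (0.81 ± 0.07), KIF24 (0.61 ± 0.06) and KIF2C (0.40 ± 0.05) and the katanin subunit KATNA1 (0.50 ± 0.06) rose. In the other lines edgeR called 1 gene of these 2 lists, TACC3 in the ChFP line (-0.18, edgeR adjusted p = 0.0467), where the number that fell was 0 to 7 over 15 alternatives. For the stabilizing list in the poly-adenylate line, called 0 times, 6 genes had an unadjusted p under 0.05 and DESeq2 called 0. For the severing list, also called 0 times, these numbers were 4 and 0 in the poly-adenylate line and 3 and 1 in the ChFP line.

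The list of kinases known to phosphorylate stathmins, and of catalytic subunits of the phosphatases that reverse it, held 26 genes, of which 25 were tested. In the 102xPR line 4 rose, 15 fell and 6 were not called, with a median log2 fold change of -0.32. Over all tested genes 33.8% were called upward and 33.4% downward there, with a median of -0.01. MAPK3 (ERK1, -0.54 ± 0.05), PPP1CA (-0.54 ± 0.05), CDK2 (-0.51 ± 0.05) and CDK5 (-0.59 ± 0.06) fell. MAPK8 (JNK1, a kinase of STMN2) fell by 0.39 ± 0.06 (edgeR adjusted p = 4.18e-06), and UHMK1 (KIS, a kinase of STMN1) by 0.32 ± 0.06 on the log2 scale (edgeR adjusted p = 1.99e-05). With edgeR 0 of these 25 genes were called in the poly-adenylate line and 0 in the ChFP line, with 4 in each at an unadjusted p under 0.05 and 2 and 1 called by DESeq2.

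Of the listed genes of axon maintenance and of the DLK-JNK pathway, which controls the turnover of STMN2 in injured axons, most were higher. The list holds no JNK kinase, and MAPK8 (JNK1), counted among the kinases above, fell (-0.39 ± 0.06). All 16 listed genes were tested in the 102xPR line, 10 rose, 1 fell and 5 were not called (median 0.31). Over all tested genes there 33.8% were called upward and 33.4% downward. NMNAT2, the short-lived axonal survival enzyme, rose from 1.82 to 5.43 CPM (1.56 ± 0.16) and its nuclear relative NMNAT1 by 1.29 ± 0.12. JUN, the transcription factor at the end of the pathway, rose by 0.96 ± 0.10 and the scaffold MAPK8IP1 by 0.59 ± 0.07. SKP1 was the 1 gene that fell, and this number was 2 without uninduced 102xPR replicate 2. In the ChFP line JUN fell (-0.41 ± 0.10, edgeR adjusted p = 0.0489; a count of 0 to 2 over 15 alternatives, and 1 in 5 of them), and edgeR called 0 in the poly-adenylate line (3 at an unadjusted p under 0.05, 1 by DESeq2).

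STMN2 and other neuronal genes are repressed outside neurons by REST, a zinc-finger repressor that recruits histone deacetylases and phosphatases. Of 13 genes of this complex 12 were tested in the 102xPR line, 2 rose, 7 fell and 3 were not called (median -0.22). Among all tested genes there, 33.8% were called upward and 33.4% downward. REST itself went from 45.4 to 40.2 CPM (-0.18 ± 0.06, edgeR adjusted p = 0.00706), and its response was not shown to differ from that of the ChFP line (-0.08, edgeR adjusted p = 0.411) or the poly-adenylate line (-0.14, edgeR adjusted p = 0.138). Before induction REST was already lower in 102xPR than in ChFP cells (-0.21, edgeR adjusted p = 0.0185), where line and the library set described at the end coincide. In the 102xPR line HDAC1 (-0.48 ± 0.05), CTDSPL (-0.72 ± 0.07) and CTDSP2 (-0.45 ± 0.06) fell, and RCOR3 rose (0.72 ± 0.06). In the poly-adenylate and ChFP lines edgeR called 0 of the 12 (1 and 2 at an unadjusted p under 0.05, 0 and 1 by DESeq2).

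Of 27 neuronal genes known as REST targets, 22 were tested in the 102xPR line, 18 rose, 3 fell and 1 was not called, with a median log2 fold change of 1.47 against -0.01 over all genes. SYT4 (6 counts uninduced, 86 induced), CPLX2 (11 and 89) and SCG2 (12 and 69) were low outside the induced 102xPR libraries, and genes that pass the filter only through those libraries had to differ. The 18 that rose and the median of 1.47 include such genes. They thus cannot be set evenly against the 33.8% called upward and the -0.01 over all genes. With a minimum count of 50 in place of 10 the number that rose was 10. How many of the 22 remained tested under that filter is not given here, so 10 and 18 cannot be compared directly. VGF, a secreted neuropeptide precursor, rose by 4.03 ± 0.12. SNAP25, a synaptic fusion protein, went from 1.07 to 9.10 CPM (3.09 ± 0.17), CELSR3 from 9.54 to 39.8 CPM (2.06 ± 0.12) and SCG3 from 0.711 to 4.92 CPM (2.81 ± 0.24). The 1 target that rose in the poly-adenylate line was the neurofilament NEFH (0.277 to 0.795 CPM; 1.51 ± 0.37, edgeR adjusted p = 0.0447), a count that was 0 to 2 over 16 alternatives and 1 in 5 of them. In the ChFP line 2 rose, CELSR3 (0.51, edgeR adjusted p = 0.0489) and KCNH2 (0.39, edgeR adjusted p = 0.0473), a count that was 0 to 2 over 15 alternatives and 2 in 4 of them. The response to 102xPR was higher than that of the ChFP line in 14 and lower in 3 targets, and higher than that of the poly-adenylate line in 16 and lower in 3. Over all tested genes 28% were higher and 30.3% lower than in the ChFP response, and 28.9% and 29.6% than in the poly-adenylate response. The targets counted again include genes that pass the filter only through the induced 102xPR libraries, so the comparison is not even.

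TARDBP, which encodes TDP-43, rose slightly in the 102xPR line, from 330 to 385 CPM (0.22 ± 0.06, edgeR adjusted p = 0.000990), and was not called in the poly-adenylate (-0.02, edgeR adjusted p = 0.907) or ChFP line (-0.14, edgeR adjusted p = 0.173). Of 13 genes, TARDBP and genes known for cryptic exons when TDP-43 is lost, 5 rose, 7 fell and 1 was not called in the 102xPR line (median -0.24). Among all tested genes in that line, 33.8% were called upward and 33.4% downward. PFKP (-1.41 ± 0.06) and SYT7 (-0.95 ± 0.08) fell. UNC13A rose (1.64 ± 0.19), and ELAVL3 had 3 counts uninduced and 183 induced. ELAVL3, counted among the 5 that rose, passed the filter only through the induced 102xPR libraries and so had to differ. AGRN rose in the ChFP line (0.42, edgeR adjusted p = 0.0423), a count of 1 in 8 of 15 alternatives and otherwise 0. Gene counts do not show cryptic exons, so splicing of STMN2 was not measured.

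STMN1 is a gene of dividing cells, and proliferation genes were counted beside it. Of 22, all tested, 6 rose, 11 fell and 5 were not called in the 102xPR line (median -0.11), and the number that rose was 3 without uninduced 102xPR replicate 1. The shares over all tested genes in that line were 33.8% upward and 33.4% downward. CCNE1 (-0.81 ± 0.06) and RRM2 (-0.43 ± 0.04), genes of entry into and passage through S phase, fell. BUB1 (0.55 ± 0.05) and CDC20 (0.47 ± 0.04), genes of mitosis, rose. MKI67 was not called (0.06, edgeR adjusted p = 0.763). In the ChFP line CCNB1, BUB1, FOXM1 and PLK1 fell by 0.24 to 0.30 on the log2 scale (1 to 6 genes over 15 alternatives), and in the poly-adenylate line edgeR called 0 of the 22 (1 at an unadjusted p under 0.05, 0 by DESeq2). Their part in the fall of STMN1 was not tested.

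The cells carried the markers of their label. Of 14 markers of embryonic kidney and HEK293 cells 13 passed the filter, and their summed level was 1004 to 1109 CPM over the 15 libraries outside induced 102xPR and 1251 to 1330 CPM in induced 102xPR. LHX1 had 2 counts in uninduced and 3 in induced 102xPR cells. In the 102xPR line 4 of them rose, among them INA (1.92 ± 0.08) and VIM (0.52 ± 0.07), 1 fell and 8 were not called (median 0.11). PAX2, the gene that fell (-0.32, edgeR adjusted p = 0.0237), was not called without uninduced replicate 3 or induced replicate 1 or 2 of the 102xPR line.

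Neuronal markers were examined because STMN2 and STMN4 are neuronal genes. Of 17 markers of mature neurons 13 were tested in the 102xPR line, 6 rose, 0 fell and 7 were not called (median 0.17), beside 33.8% of all tested genes called upward. Those that rose included SNAP25, SYN1 (2.04 ± 0.21) and MAP2 (2.14 ± 0.24). ELAVL3, counted among them, passed the filter only through the induced 102xPR libraries and so had to differ. The summed level of the list was 443 to 478 CPM in uninduced and 475 to 501 CPM in induced 102xPR cells, within the 476 to 527 CPM of the other 4 groups but for its lowest library. Most of that sum came from the neurofilament genes NEFL (160 CPM uninduced, 172 induced) and NEFM (249 and 246 CPM), which were not called. SLC17A6, the glutamate transporter of excitatory neurons, had no count in any of the 6 groups. ELAVL4 went from 8 to 12 counts, GAD2 from 18 to 15 and DCX from 7 to 6 in the 102xPR line. Of 9 neuroblast markers 4 were tested, 2 rose and 2 fell (median -0.01), with PHOX2A at 0 and 1 counts and TH at 3 and 0 in uninduced and induced cells. Of 11 glial markers 6 were tested, 2 rose, 2 fell and 2 were not called (median -0.12), with MOG and AIF1 at 0 in every group. CX3CR1, counted among the glial markers that rose, also passed the filter only through the induced 102xPR libraries. With the replicate number as a block in the fit, 1 of the 13 neuronal markers fell. In the other lines 4 calls were made over the marker lists: KRT8 (0.57 ± 0.14), TUBB3 and SLC1A3 (-0.34 ± 0.06) in the ChFP line and NEFH in the poly-adenylate line. Markers of these other cell types were thus found at both ends: SLC17A6, DCX, PHOX2A, MOG and AIF1 were at or near 0 in the 102xPR line, while GATA2 (72.6 to 83.6 CPM), GATA3 (28.9 to 46.6), ISL1 (29.01 to 24.9), SLC1A3 (67.2 to 68.8) and OLIG2 (10.7 to 14.8) were well expressed, and CX3CR1 went from 6 to 42 counts. The part of other cell types in the STMN2 and STMN4 counts was not tested.

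Apart from the 3 induced 102xPR libraries, which separate on the first principal component (57.9% of variance), the libraries fell into 2 sets on the second component (7.61%). The smaller set of 8 held replicates 1 and 2 of induced 102xPR, replicates 2 and 3 of uninduced poly-adenylate, replicate 3 of induced ChFP and the 3 uninduced ChFP libraries. The larger set held the other 10. The labels name no batch that matches these sets. With the set as a term in the fit, the log2 fold changes in the 102xPR line were -0.66 for STMN1 and -0.93 for STMN3, both called. The larger set holds 1 induced 102xPR library against 3 uninduced ones. Within it the values were -0.72 and -1.03, from a fit that assumes that this 1 library varies like the others. Over all alternatives tried the log2 fold changes ranged from -0.72 to -0.64 for STMN1 and from -1.04 to -0.93 for STMN3.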

How the data were processed

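Poly(A) RNA of 18 HEK293T libraries, 3 per group, was read as 100 bp single reads, per the labels' protocols. The authors deposited 1 table of raw counts per gene. The submitters' processing notes name bcl2fastq 2.20.0.422, cutadapt 3.4, HISAT2 2.1.0, featureCounts, DESeq2 1.30.1 and build hg38. The annotation is not given in the sources used here, nor is the strand setting, which leaves genes that overlap or have near copies uncertain. A further 2 deposited tables hold the authors' mean normalized signal, log2 fold changes with standard errors, p-values and adjusted p-values, for contrasts that they do not name.

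The members and all gene lists were chosen with earlier results of these data known. From the deposited counts, genes were filtered with filterByExpr (minimum count 10), which left 15447 of 28394; the 550 rows without a symbol held 0.0410% of counts. Quasi-likelihood fits with robust dispersion used edgeR 4.0.16 (R 4.3.3), TMM factors, 1 term per group over all 18 libraries, 10 contrasts and Benjamini-Hochberg adjustment with a threshold of 0.05. The common biological coefficient of variation was 5.75%. Ratios for STMN2 and STMN4 have exact binomial 95% intervals for counting error alone. These take each read as 1 molecule, which PCR reads lacking molecular identifiers need not be, so they may be too narrow. Levels per kilobase used the longest coding GENCODE v29 transcript, because the RefSeq table named in the plan gives genomic length only. Scripts were tested on simulated data.

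Named were the 4 members, up to 4 genes with the smallest adjusted p per list and line, TARDBP, REST, TUBB3, MAPK8 and UHMK1, the 3 genes most like each member and its neighbours. Genes with few counts, markers near 0, single genes of a count of 1 and STMND1 were chosen after their values were seen. A few named by the rule are not reported here. Principal components were computed in R with prcomp on edgeR's log2 CPM. Alternatives were DESeq2 1.42.0, other normalization and filters, the groups of the contrast alone, the replicate number as a block, the library set, and leaving out each library. Same-numbered libraries did not deviate together (r from 0.00212 to 0.166), so numbers were not taken to pair them.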

Additional observations from a re-analysis of the deposited data

Results flagged for a closer look

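STMN1 and STMN3 responded differently to induction in the 102xPR line than in the other lines, by the test of the difference itself. For STMN1 the 102xPR response minus the ChFP response was -0.63 and minus the poly-adenylate response -0.61 on the log2 scale (edgeR adjusted p = 4.44e-09 and 6.65e-09). For STMN3 these differences were -1.09 and -1.10 (edgeR adjusted p = 3.94e-10 and 2.85e-10). All 3 induced 102xPR libraries were lower than all 3 uninduced ones for both genes. The differences of each gene share the 102xPR libraries, and line and construct cannot be told apart.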

How the results depend on the processing

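The 8 called results of STMN1 and STMN3 kept direction and call in all 150 alternatives, the replicate block included (-0.675 for STMN1 and -0.997 for STMN3 in the 102xPR line). Ratios of counts for STMN4 in the 102xPR line ran from 166 to 202 with single libraries left out, and those for STMN2 from 9.29 to 24.4. The share of STMN4 in the family of induced 102xPR cells was 3.01% of counts not divided by length. Among 12 uncalled results of STMN1 and STMN3, with 196 alternatives, 14 values changed sign, all close to 0, and the cause was not tested. For the poly-adenylate minus the ChFP response, STMN3 was at -0.0190 with library totals as scaling and ran from -0.0425 to 0.0723 without single libraries, and STMN1 ran from -0.0446 to 0.0123. For induced poly-adenylate against induced ChFP cells STMN3 was at -0.00278 with the library set as a term, -0.00187 with the replicate block and set, -0.0326 within the larger set and from -0.0341 to 0.0838 without single libraries. For the uninduced cells of these lines it was at -0.0202 with the set, -0.0158 with block and set and from -0.0311 to 0.0633 without single libraries. STMN3 in uninduced 102xPR against ChFP cells became called with DESeq2 (0.162) and in the fit on the 2 groups alone (0.167), and was 0.0693 with the set as a term (edgeR adjusted p = 0.842).

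Counts of genes called in the comparisons without induced 102xPR cells moved by over 1.5 times, and the cause was not tested. In the poly-adenylate line (167) they were 527 with DESeq2, 19 on its groups alone, 269 with the replicate block, 13 with the set, 62 within the larger set and 2 to 1241 without single libraries. In the ChFP line (311) they were 587 with DESeq2, 703 with the block, 163 with the set, 525 with both and 29 to 1397 without single libraries. For the difference of these responses (4) they were 11 without a filter, 114 with DESeq2, 47 with the block, 214 with the set, 901 with both and 1 to 8 without single libraries. For induced poly-adenylate against ChFP (145) they were 47 with library totals, 406 with DESeq2, 20 on the groups alone, 386 with the block, 455 with the set, 1114 with both, 34 within the larger set and 0 to 387 without single libraries. For uninduced 102xPR against ChFP (1881) they were 3649 on the groups alone, 0 with the set, 16 with both and 331 to 910 without single libraries. For uninduced poly-adenylate against ChFP (16) they were 41 with DESeq2, 2 on the groups alone, 112 with block and set and 3 to 23 without single libraries. Of 416 alternative list counts in the 102xPR line 13 moved by over 1.5 times, and of 806 in the other lines, where at most 4 genes of a list were called, 151 did. The larger set holds no uninduced ChFP library, so comparisons with it have no value there, and it holds 1 induced 102xPR and 1 uninduced poly-adenylate library, which are assumed to vary like the others. Within it, 2 severing enzymes fell in the 102xPR line in place of 4.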
